A study of Oncorhynchus mykiss with 8 samples.

Results

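The Dec. lot of rainbow trout was a set of paternal half-sib families of the Lyndon strain, made by crossing 1 male with 5 females, and the small and large fish of this lot were compared in the liver. Both sizes had the same sire, were reared together and were reproductively immature, so that size was the only labelled difference between them. Each mRNA pool held liver of 5 fish, 1 from each family. Either size of this lot held both sexes, with more males than females among large fish and the reverse among small fish. The sexes within a pool are not given. A pool of large and a pool of small fish made up a pool pair, in which the largest fish of the families met the second smallest, or the second largest met the smallest. The lot gave 2 pool pairs, and each was hybridized on 2 salmonid Agilent arrays with the dyes Alexa Fluor 647 and Alexa Fluor 555 exchanged, which makes 4 of the 8 arrays of the series. The other 4 hold small and large fish of a Sept. lot, the offspring of 1 other male and 5 other females. Members were the probes with a log2 ratio on all 4 Dec. arrays, and 34014 of 43603 probes qualified. A log2 ratio above 0 means more mRNA in small fish, and one below 0 means more in large fish. Fish within a pool cannot be told apart, and with 1 sire the result stands for the families of that male.

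The liver of a growing fish receives the signal of growth hormone from the pituitary and answers with insulin-like growth factors (IGFs), which drive growth in muscle and bone. IGF binding proteins (IGFBPs) hold these factors in the blood, and IGFBP1, made mainly in the liver, keeps them from their receptor and is known to go up in fasting and stress. Hepatocytes also make cholesterol from acetyl-CoA, pack lipids into lipoproteins, secrete most plasma proteins, break down amino acids and oxidize foreign compounds. Blood runs through the organ, so that mRNA of the nucleated red blood cells of fish is part of any liver sample.

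The 2 arrays of a pool pair carried the same pools, and their ratios did not go together across probes. Across the 34014 probes the Pearson correlation between the arrays of a dye flip was -0.16 in pool pair 1 and 0.00477 in pool pair 2. Arrays with the same dye on the small fish correlated at 0.25 (Alexa Fluor 647) and 0.11 (Alexa Fluor 555) although they held different pools. After the arrays of a flip were averaged, pool pair 1 and pool pair 2 correlated at -0.08 (Spearman -0.12), and 45.2% of the probes were of 1 sign in both. Probes are not independent replicates, so these values describe the arrays and carry no test. Ratios were read as small over large fish on all arrays. This was done because all 151 entries of the study's Dec. liver lists lay on the side that this reading gives. With the sign turned on the arrays with small fish in Alexa Fluor 555, 62 did. The lists were made from these same arrays. They show how the study read the values and are no independent check of the direction. The share of probes without a value ran from 7.94% to 15.7% on the Dec. arrays, against 3.86% to 5.32% on the Sept. arrays, and the array medians from -0.03 to 0.11. A ratio gives no level of either size, so that the tissue could not be checked by the level of its markers. All 16 probes with names of albumin, apolipoproteins, fibrinogen, hemopexin, liver-type fatty acid-binding protein and antithrombin had a value on all 4 arrays, with ratios between -0.51 and 0.13. So did 40 of 44 muscle contractile and 28 of 32 white blood cell probes. The presence of a value therefore does not tell liver from other tissue. The part of the dye in the results below was not tested, and for the probes that matter most the value on each array or dye orientation is given.

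**Figure D1:**
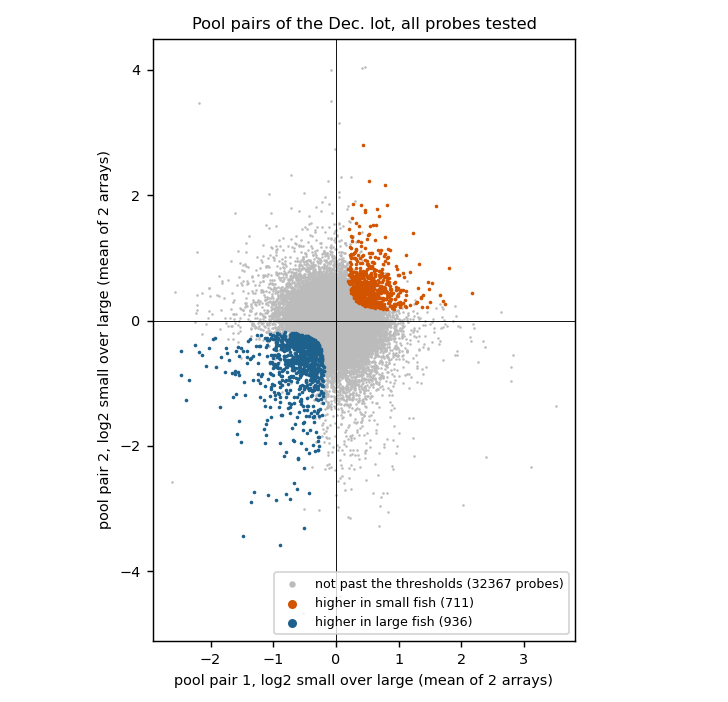
Mean log2 ratio of small over large fish in pool pair 1 (horizontal axis) and in pool pair 2 (vertical axis), 1 point for each of 34014 probes, with probes past the thresholds in color. The cloud has no upward slope (r = -0.08), and the probes past the thresholds lie away from the center, 711 on the side of the small and 936 on that of the large fish.

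The means of the 2 pool pairs were tested against 0 in limma, with a spread shared with the pool pairs of the Sept. lot, at the thresholds of the study's methods (unadjusted p up to 0.05, fold at least 1.2). Of 34014 probes 1647 passed, or 4.84%, where an unadjusted p of 0.05 lets through 5% of unchanged probes. Among these 711 (2.09%) were higher in small fish and 936 (2.75%) in large fish. The same sign on all 4 arrays was found for 2739 probes (8.05%), and 824 of these passed (2.42%). Of the latter 432 (1.27%) were higher in small fish and 392 (1.15%) in large fish. No probe passed an adjusted p of 0.05, at which limma gave 0 probes, the methods' t-test over 4 arrays also 0 and the smallest adjusted p was 0.990. Every difference below is therefore one that passed or did not pass the unadjusted thresholds, and none holds after adjustment. The standard errors (SE) are those of limma, with n = 2 pool pairs. Where a Dec. pool pair is left out below, the Dec. lot adds nothing to the spread, which then comes from the Sept. pool pairs. For 723 Dec. probes the Sept. pool pairs were not both complete. Their spread was then only the value that limma drew from all probes. Probes described for passing were chosen on these same arrays, so that passing on part of them is no independent test.

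Names were available for 1414 of the probes tested, from the platform's symbols and from the study's own tables, where they are matches to sequences of other species, and are given as they stand, also where they are cut short. The tables list only probes that the study had called. Of the names, 83 come from its Dec. liver tables alone, which were made from these 4 arrays, and 74 of those 83 passed the thresholds, 72 of them on the side of the small fish. Of the 1331 probes named independently of these, 94 passed (7.06%), 40 on the side of small and 54 on the side of large fish. Many of the latter names come from tables of muscle of the same fish, and others from the Sept. part of the liver tables. Probes that carry a name only from the Dec. liver tables are counted apart below, because their side was known from these arrays. All list members carry a name, and 11.9% of all named probes passed. The 4.84% over all probes is therefore a low measure for the lists.

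On the side of the small fish IGFBP1 had the largest ratio of the probes with a gene name that passed and kept 1 sign across the arrays. Its probe A_05_P489857 lay at 1.10 and 2.09 in pool pair 1 and at 1.73 and 1.92 in pool pair 2, with small fish in Alexa Fluor 647 first and in Alexa Fluor 555 second, an order kept for all values below. All 4 arrays were far above 0, and the mean was 1.71 (SE 0.18), or 3.27-fold more mRNA in small fish, past the thresholds and with an adjusted p of 0.990 in limma. The second IGFBP1 probe, A_05_P249019, lay at 0.69 and 0.81 in pool pair 1 and at 0.20 and 0.24 in pool pair 2. It was above 0 on all arrays but lower, with a mean of 0.48 (SE 0.17), past the thresholds with both pool pairs and not without pool pair 1, where 0.22 was left. The 2 probes may read different copies of the gene, since salmonids carry many near-identical gene pairs, and the files do not say which.

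The other members of the IGF axis did not pass. They were growth hormone receptor ghr1 at 0.22 (SE 0.31), the IGF-I receptor at 0.03 (SE 0.12), igfbp6 at -0.01 (SE 0.16), growth factor receptor-bound protein 14, an adaptor that damps insulin receptor signals, at -0.11 (SE 0.15), and the IGFBP-related igfbprp1 at -0.37 (SE 0.21). The median of the 7 probes was 0.03, beside 0.01 over all probes tested. On Alexa Fluor 647 alone ghr1 turned to -0.19, and on Alexa Fluor 555 alone igfbprp1 turned to 0.24 and growth factor receptor-bound protein 14 to 0.53. No probe named for IGF-I or IGF-II themselves was among the members.

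**Figure D2:**
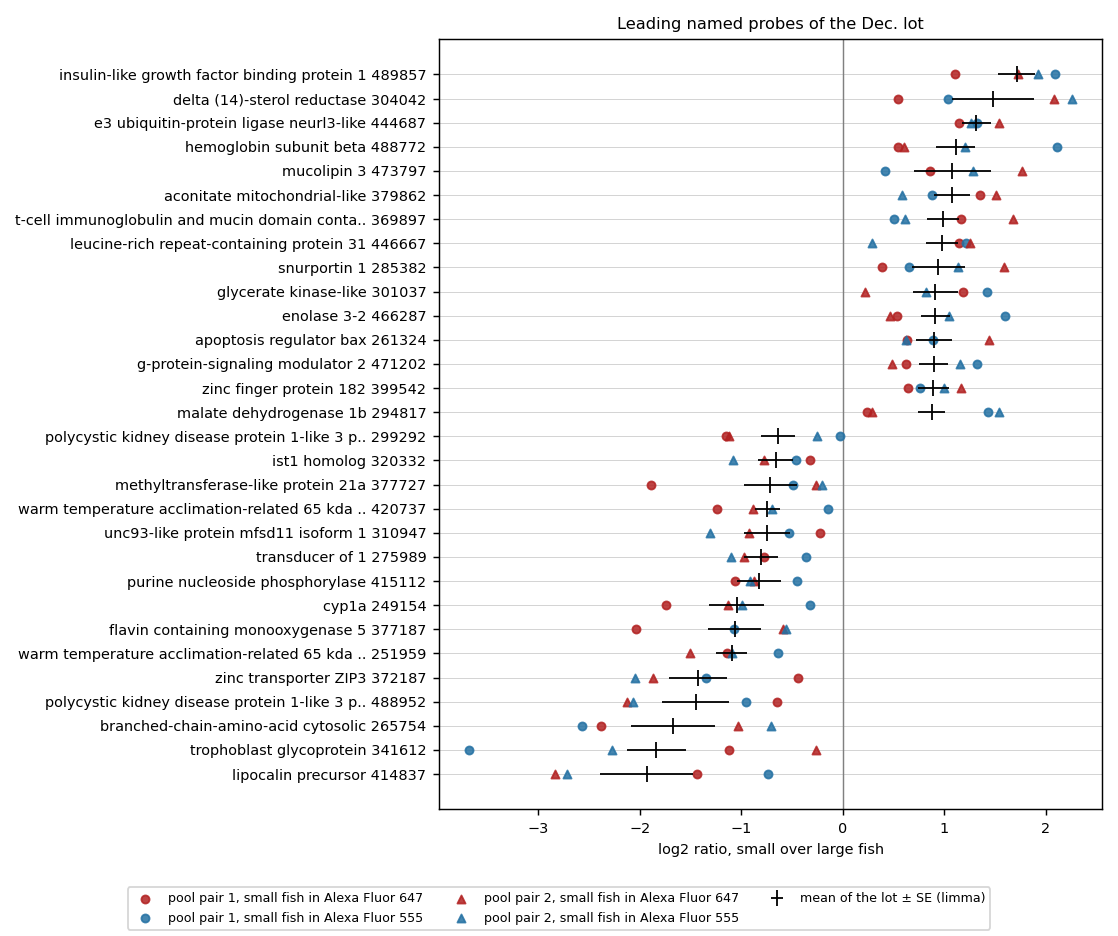
Log2 ratio of small over large fish for 15 probes named for a gene on either side, the most extreme that passed and had 1 sign on all 4 Dec. arrays (placeholder names left out); points are arrays (shape for the pool pair, color for the dye of the small fish) and crosses are the mean ± SE of limma (n = 2 pool pairs). IGFBP1 is at the top at 1.71 and lipocalin at the bottom at -1.93, and the arrays of one probe often lie more than 1 log2 unit apart.

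Of the 15 leading named probes on the side of the small fish, 14 owe their name to the Dec. liver tables. Delta(14)-sterol reductase, which reduces a double bond on the way to cholesterol, lay at 0.54, 1.03, 2.08 and 2.26. Pool pair 2 was higher on both arrays, and the mean of 1.48 (SE 0.41) did not pass without that pair, at 0.79. The neurl3-like ubiquitin ligase, of a class of enzymes that tag proteins for breakdown, lay at 1.14, 1.32, 1.54 and 1.26, with a mean of 1.32 (SE 0.14). These 4 values had the narrowest range of any probe in this group. The hemoglobin beta probe A_05_P488772 lay at 0.54, 2.11, 0.60 and 1.2004, with a mean of 1.11 (SE 0.19).

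Mucolipin 3, a cation channel of endosomes and lysosomes, lay at 0.85, 0.41, 1.77 and 1.28, with a mean of 1.08 (SE 0.38) that did not pass without pool pair 2. The probe named aconitate mitochondrial-like lay at 1.35, 0.88, 1.51 and 0.58, with a mean of 1.08 (SE 0.18). Its higher values both came from the arrays on which small fish carried Alexa Fluor 647. The t-cell immunoglobulin and mucin domain protein 4, by which macrophages take hold of dying cells, lay at 1.17, 0.51, 1.68 and 0.61, with the same order of the dyes and a mean of 0.99 (SE 0.16). The apoptosis regulator bax, which opens the outer membrane of mitochondria in dying cells, lay at 0.63, 0.89, 1.44 and 0.62, with a mean of 0.90 (SE 0.18). All 4 arrays of bax were above 0.5 on the log2 scale whichever dye the small fish carried.

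The rest of this group lay between 0.87 and 0.97. It held leucine-rich repeat-containing protein 31 at 0.97 (SE 0.16), snurportin 1, which brings spliceosomal particles back into the nucleus, at 0.94 (SE 0.26), glycerate kinase-like at 0.91 (SE 0.22) and 0.52 without pool pair 1, and enolase 3-2 on A_05_P466287 at 0.91 (SE 0.14). G-protein-signaling modulator 2, known in mammals for orienting the mitotic spindle, was at 0.90 (SE 0.14), zinc finger protein 182 at 0.89 (SE 0.15) and malate dehydrogenase 1b at 0.87 (SE 0.13). Malate dehydrogenase 1b lay at 1.43 and 1.54 with small fish in Alexa Fluor 555 and only at 0.24 and 0.29 in Alexa Fluor 647. For the enolase probe Agilent gives another gene. The 15 probes of this group were chosen on these same arrays, so that passing on part of them is partly given by the choice. Snurportin 1 did not pass without pool pair 2 (0.52). Of the 15 probes 12 passed both without pool pair 1 and without pool pair 2, and 10 also passed on either dye orientation alone.

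On the side of the large fish 13 of the 15 leading named probes were named independently of the Dec. liver tables. Lipocalin, a secreted protein that binds small lipids, lay at -1.43, -0.73, -2.84 and -2.72. All arrays were below 0 and pool pair 2 was the lower, with a mean of -1.93 (SE 0.46) or 3.81-fold more mRNA in large fish, and of -1.08 without pool pair 2. Trophoblast glycoprotein, a cell surface protein with leucine-rich repeats, lay at -1.12, -3.68, -0.27 and -2.27 on A_05_P341612. Both low values came from the arrays on which small fish carried Alexa Fluor 555. On Alexa Fluor 647 alone the mean of -1.84 (SE 0.29) became -0.70 and did not pass. Another probe of this name, A_05_P486127, passed in the opposite direction, at 0.47 (SE 0.13), and owes its name to the Dec. liver tables alone. The probe named branched-chain-amino-acid cytosolic lay at -2.38, -2.56, -1.03 and -0.71, with a mean of -1.67 (SE 0.41) that was -0.87 without pool pair 1.

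Polycystic kidney disease protein 1-like 3, a polycystin of the cell membrane, had 2 probes, and each was below 0 on all 4 arrays. Probe A_05_P488952 lay at -0.65, -0.96, -2.13 and -2.07, with a mean of -1.45 (SE 0.33) and -0.80 without pool pair 2. Probe A_05_P299292 lay at -1.16, -0.03, -1.12 and -0.26, with a mean of -0.64 (SE 0.17). The first probe split by pool pair and the second by dye, and the second did not pass when either pool pair was left out. ZIP3, a zinc importer of the cell membrane, lay at -0.44, -1.34, -1.87 and -2.05, with a mean of -1.42 (SE 0.29) and -0.89 without pool pair 2.

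Wap65, a plasma protein of fish named for warm temperature acclimation and a relative of the heme binder hemopexin, was measured by 2 probes that went the same way. On A_05_P251959 it lay at -1.15, -0.64, -1.50 and -1.09, with a mean of -1.09 (SE 0.15). On A_05_P420737 it lay at -1.24, -0.15, -0.89 and -0.69, with a mean of -0.74 (SE 0.12). Neither probe had an array above 0, and both passed with either pool pair left out, although the second did not pass on Alexa Fluor 555 alone (-0.42).

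Cyp1a, the cytochrome P450 that oxidizes aromatic compounds, was also lower in small fish on both of its probes. Probe A_05_P249154 lay at -1.74, -0.33, -1.13 and -0.99, with a mean of -1.05 (SE 0.27), and probe A_05_P248994 at -1.66, 0.08, -1.65 and -0.58, with a mean of -0.95 (SE 0.33). Both arrays on which small fish carried Alexa Fluor 647 were lower for both, and neither passed on Alexa Fluor 555 alone or with 1 pool pair left out. Flavin containing monooxygenase 5 lay at -2.04, -1.07, -0.59 and -0.56, with a mean of -1.06 (SE 0.26). Without pool pair 1 it was at -0.57, and Agilent gives another gene for this probe.

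The remaining leading probes of large fish lay between -0.83 and -0.66. They were purine nucleoside phosphorylase, an enzyme of purine salvage, at -0.83 (SE 0.22), the probe named transducer of 1 at -0.80 (SE 0.17), the membrane protein unc93-like mfsd11 at -0.75 (SE 0.23), methyltransferase-like protein 21a at -0.71 (SE 0.26) and ist1, of the machinery that cuts membranes in endosomes, at -0.66 (SE 0.17). For transducer of 1, methyltransferase-like protein 21a and ist1 Agilent gives other genes. The 15 probes on this side were also chosen on these arrays, and passing on part of them is partly given by that choice. Methyltransferase-like protein 21a rested on the array at -1.89, with the others at -0.49, -0.27 and -0.20, and had -0.23 without pool pair 1. Purine nucleoside phosphorylase did not pass when either pool pair was left out, and unc93-like mfsd11 (-0.38) and ist1 (-0.39) did not pass without pool pair 2. Of the 15 probes on this side 9 passed both without pool pair 1 and without pool pair 2, and 7 also passed on either dye orientation alone.

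Of the 14 probes for enzymes of the sterol path from acetyl-CoA to cholesterol, 7 passed (50%, beside 4.84% over all probes). All 7 were higher in small fish and 0 in large fish, with 13 of 14 ratios above 0. The median was 0.68, beside 0.01 over all probes. The 10 members named independently of the Dec. liver tables had the same median, and 4 of them passed. Isopentenyl-diphosphate delta-isomerase 1, which converts the first isoprene unit, lay at -0.60, 1.68, 0.16 and 2.85, with a mean of 1.02 (SE 0.28). Farnesyl pyrophosphate synthetase, which joins these units, lay at 0.10, 0.94, 1.44 and 0.71, with a mean of 0.80 (SE 0.23). The isomerase was high only with small fish in Alexa Fluor 555 and turned to -0.22 on Alexa Fluor 647 alone, whereas farnesyl pyrophosphate synthetase was above 0 on all arrays.

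Squalene monooxygenase, the enzyme that adds oxygen to squalene, passed on A_05_P424717 at 0.95 (SE 0.24), with arrays at 1.07, -0.02, 1.55 and 1.197. Its other probe, A_05_P376672, was at 0.72 (SE 0.28) and did not pass. Lathosterol oxidase-like, which works near the end of the path, had probes at 0.68 (SE 0.22) and 0.67 (SE 0.13), both past the thresholds and both turning below 0 on Alexa Fluor 647 alone, at -0.07 and -0.24. The probe named acetyl- cytosolic, counted with the first step, passed at 0.51 (SE 0.12).

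The 7-dehydrocholesterol reductase, the last enzyme of the path, had 4 probes at 0.81 (SE 0.31), 0.57 (SE 0.27), 0.55 (SE 0.21) and -0.06 (SE 0.16), and none passed. The 2 probes for sterol-c4-methyl oxidase-like, at 0.31 (SE 0.21) and 0.26 (SE 0.17), did not pass either. The sterol values differed by pool pair. The median of the list was 0.28 in pool pair 1 and 1.08 in pool pair 2. Without pool pair 1 11 of 14 probes passed, and without pool pair 2 only 2 passed. By dye, 2 passed with small fish in Alexa Fluor 647 alone (median 0.32) and 9 in Alexa Fluor 555 alone (median 0.84). Over all 34014 probes 4029 and 3104 passed on these dyes alone, beside 1647 with all arrays. Leaving out a Dec. pool pair also raised the number over all probes. Of the 7 probes that passed with all arrays none passed under each of these 4 settings.

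**Figure D3:**
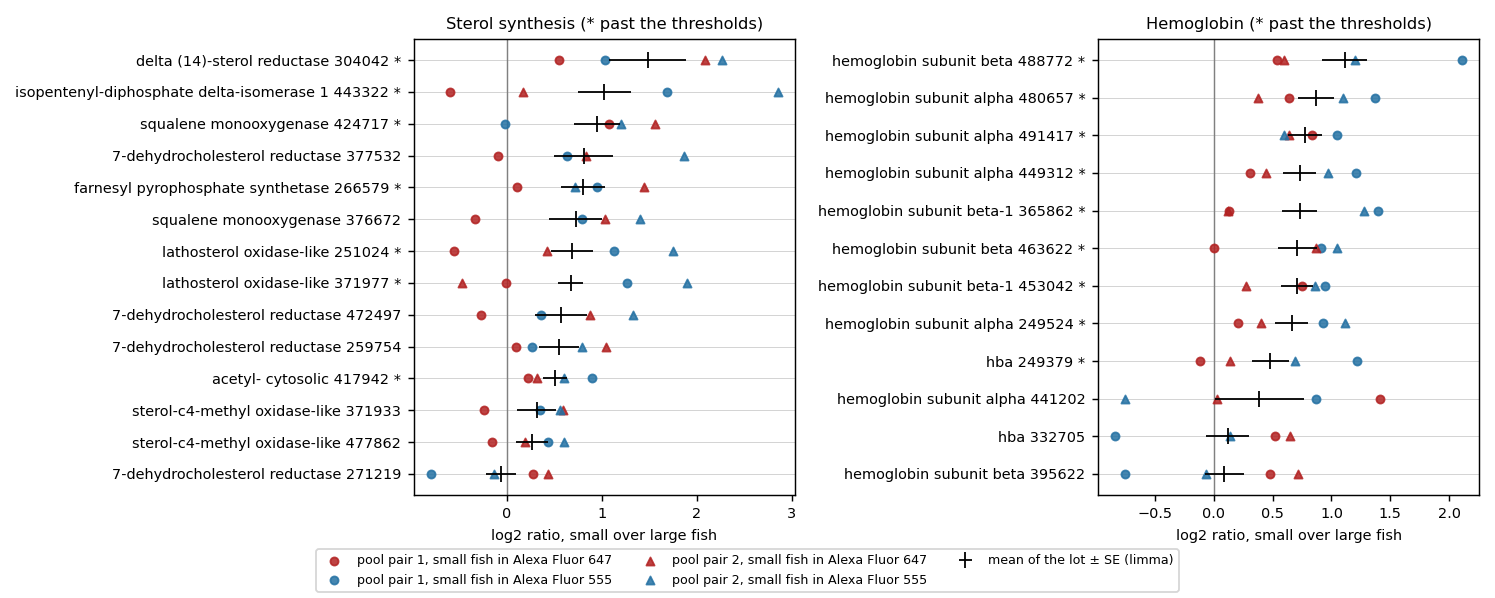
Log2 ratio of small over large fish for all sterol synthesis probes (left) and all hemoglobin probes (right); points are arrays (shape for the pool pair, color for the dye of the small fish), crosses are the mean ± SE of limma (n = 2 pool pairs) and a star marks probes past the thresholds. In the left panel most triangles of pool pair 2 lie to the right of the circles of pool pair 1, and in the right panel the 9 starred probes have means between 0.48 and 1.11.

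Hemoglobin, which carries oxygen in the blood, was measured by 12 probes. Of these 9 were higher in small fish at the thresholds (2.09% over all probes), with means between 0.48 and 1.11. The hemoglobin alpha probe A_05_P491417 lay at 0.83, 1.04, 0.64 and 0.60, with a mean of 0.78 (SE 0.15). All its arrays were above 0.5, and the values under either dye overlapped. The beta-1 probe A_05_P453042 lay at 0.75, 0.94, 0.28 and 0.86, with a mean of 0.71 (SE 0.14). The other beta-1 probe, A_05_P365862, lay at 0.13, 1.40, 0.12 and 1.28, with a mean of 0.73 (SE 0.15). It was near 0 with small fish in Alexa Fluor 647 and high in Alexa Fluor 555.

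Of the 9 probes, 8 passed both without pool pair 1 and without pool pair 2, all 9 passed on Alexa Fluor 555 alone and 3 on Alexa Fluor 647 alone. The 3 probes that did not pass were hemoglobin alpha A_05_P441202 at 0.39 (SE 0.38), hba A_05_P332705 at 0.12 (SE 0.18) and hemoglobin beta A_05_P395622 at 0.09 (SE 0.16). The last of these lay below 0 on Alexa Fluor 555 alone (-0.41), as did hba A_05_P332705 (-0.35). Agilent gives another gene for the alpha probes A_05_P480657, A_05_P449312 and A_05_P249524. Band 3, which swaps chloride and bicarbonate across the red cell membrane, passed at 0.57 (SE 0.12), with arrays at 0.06, 1.01, 0.30 and 0.91. A probe for 5-aminolevulinate, named for a step of heme synthesis, was at 0.11 (SE 0.16) and an erythrocyte membrane protein band probe at -0.12 (SE 0.13), and neither passed.

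Over all 15 red blood cell probes 10 were higher in small fish (66.7%, beside 4.84% over all probes) and 0 in large fish. The median of the list was 0.66. The 11 members named independently of the Dec. liver tables had a median of 0.48, and 6 of them passed. Several probes carry the same name and may read the same mRNA. In such bulk samples, fewer cells of a type and less mRNA per cell cannot be told apart. All 13 hemoglobin and band 3 markers had ratios above 0, from 0.09 to 1.11, on the same side as the 7 sterol, 2 IGFBP1 and 7 of the 8 cell division probes that passed. Their part in those results was not tested.

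Glutamine synthetase, which fixes ammonia into glutamine, passed on 3 of 4 probes, all on the side of the small fish. Probe A_05_P429307, of these 3 the one named independently of the Dec. liver tables, lay at 0.14, 1.34, 0.40 and 1.13, with a mean of 0.75 (SE 0.14). Probe A_05_P330397 had 0.61 (SE 0.17) and did not pass without pool pair 2 (0.39), and A_05_P388642 had 0.56 (SE 0.19) and did not pass without pool pair 1 (0.28). The fourth probe, A_05_P278117, was at -0.04 (SE 0.19) and did not pass. Glutamate dehydrogenase, which releases ammonia from glutamate, had probes at -0.34 (SE 0.23), -0.16 (SE 0.13) and 0.14 (SE 0.12), and none passed.

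Of the enzymes that break down the carbon of amino acids 2 passed, both on the other side. Beside branched-chain-amino-acid cytosolic, glutaryl-coenzyme a dehydrogenase, of lysine and tryptophan breakdown, passed at -0.57 (SE 0.19), with arrays at -1.22, 0.37, -1.13 and -0.29. It was low with small fish in Alexa Fluor 647 and at 0.04 on Alexa Fluor 555 alone, and it did not pass with either pool pair left out. Of the 15 probes of this list 5 passed (33.3%, beside 4.84% over all probes), with a median of -0.04. Of these 3 lay on the side of the small and 2 on the side of the large fish.

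In the methionine, folate and one-carbon list 0 of 15 probes were higher in small fish at the thresholds. In large fish 3 were higher (20%, beside 4.84% over all probes), with 12 of 15 ratios below 0 and a median of -0.19. Cystathionine beta-synthase, which takes homocysteine towards cysteine, lay at -0.80, -0.53, -0.84 and -0.05, with a mean of -0.56 (SE 0.18). It was below 0 on all 4 arrays and did not pass with either pool pair left out. The probe named sarcosine mitochondrial lay at -1.36, 0.26, -1.07 and -0.15, with a mean of -0.58 (SE 0.13), and formiminotransferase cyclodeaminase, of histidine breakdown, at -1.42, 0.84, -1.60 and -0.02, with a mean of -0.55 (SE 0.17). Both turned above 0 on Alexa Fluor 555 alone, at 0.05 and 0.41. The second probes of both names lay at -0.01 each and did not pass. The median of the list was -0.59 with small fish in Alexa Fluor 647 and 0.21 in Alexa Fluor 555, so that its direction changed with the dye. Betaine--homocysteine s-methyltransferase 1, which remakes methionine, lay at 0.16 and 1.75 in pool pair 1 and at -2.25 and -1.96 in pool pair 2 and did not pass (-0.57, SE 0.72).

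Of 33 probes for fatty acids and lipid transport 6 passed (18.2%, beside 4.84% over all probes), 2 on the side of the small fish (2.09% over all probes) and 4 on the side of the large fish (2.75%), with a median of -0.08. Of the latter 4, lipocalin was described above. Diacylglycerol o-acyltransferase 2, which makes triglycerides, lay at -0.99, 0.11, -1.88 and -1.16, with a mean of -0.98 (SE 0.28) that did not pass without pool pair 2. Heart-type fatty acid-binding protein passed at -0.57 (SE 0.18) and apolipoprotein B-100, the scaffold of lipoproteins, on A_05_P255119 at -0.51 (SE 0.18), and neither passed without pool pair 1 (-0.38 and -0.31). For both, ratios with small fish in Alexa Fluor 555 lay above 0 (0.11 and 0.29, and 0.03 and 0.34). Monoglyceride lipase, which frees fatty acids from monoglycerides, lay at 0.22, 0.93, 0.71 and 1.14, with a mean of 0.75 (SE 0.19). Peroxisome proliferator-activated receptor gamma, a regulator of fat storage, lay at -0.07, 0.92, 1.00 and 1.07, with a mean of 0.73 (SE 0.19). Neither passed without pool pair 2, at 0.58 and 0.42.

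Enzymes of fatty acid synthesis gave no calls. ATP citrate lyase, which supplies the acetyl-CoA for both fatty acids and sterols, had -0.01 (SE 0.20) and 0.24 (SE 0.19), NADP-dependent malic enzyme -0.72 (SE 0.30) and delta-6 fatty acyl desaturase 0.30 (SE 0.20). By dye the median of the list was -0.32 with small fish in Alexa Fluor 647, where 0 probes passed on the side of the small and 13 on that of the large fish. In Alexa Fluor 555 it was 0.13, with 6 and 1. Over all 34014 probes 1424 and 2605 passed in Alexa Fluor 647 alone, and 1920 and 1184 in Alexa Fluor 555 alone.

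Glycolysis and gluconeogenesis had 7 of 25 probes past the thresholds (28%, beside 4.84% over all probes), 5 on the side of the small fish and 2 on that of the large fish, with a median of -0.04. Of the 5, 4 owe their name to the Dec. liver tables, and among the 21 others 1 passed on the side of the small fish and 2 on that of the large fish. The 1 was glyceraldehyde-3-phosphate dehydrogenase on A_05_P419277 at 0.60 (SE 0.20), with arrays at 0.32, 1.56, -0.22 and 0.77. It did not pass without pool pair 1 (0.27), and its other probe was at -0.04 (SE 0.15). The 2 on the side of the large fish were enolase 3-2 on A_05_P473007 at -0.55 (SE 0.17) and pck2, which starts the path from oxaloacetate to glucose, on A_05_P249281 at -0.45 (SE 0.16). The former did not pass without pool pair 1 (-0.30) and the latter not without pool pair 2 (-0.24). Probes named enolase 3-2 thus passed in opposite directions, and the remaining probe, A_05_P473402, lay at -0.14 (SE 0.24). For A_05_P466287, the one on the side of the small fish, Agilent gives another gene.

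In the citric acid cycle and respiratory chain 3 of 27 probes were higher in small fish (11.1%, beside 4.84% over all probes) and 0 in large fish. All 3 owe their name to the Dec. liver tables. Beside aconitate mitochondrial-like and malate dehydrogenase 1b it was cytochrome c oxidase subunit vic, of the last complex of the chain, at 0.75 (SE 0.19), which did not pass without pool pair 1 (0.70). Of the 23 others none passed, and their median was 0.04.

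Plasma proteins, the main export of the hepatocyte, lay on the side of the large fish, with 34 of 39 ratios below 0 and a median of -0.26. At the thresholds 6 passed (15.4%, beside 4.84% over all probes), 1 higher in small fish and 5 in large fish. The 5 were both Wap65 probes, complement component c9, which forms the membrane pore of complement, at -0.65 (SE 0.22) and not past without pool pair 1 (-0.39), inter-alpha-trypsin inhibitor heavy chain h3 at -0.56 (SE 0.15) and not past without pool pair 2 (-0.51), and a C1r/C1s-like complement protease at -0.51 (SE 0.12). The protease lay at -1.47, 0.41, -1.35 and 0.37. It was far below 0 with small fish in Alexa Fluor 647 and above 0 in Alexa Fluor 555.

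This split by dye held for the list as a whole. With the small fish in Alexa Fluor 647 the median was -0.76, and 17 of 39 probes were higher in large fish and 0 in small fish. In Alexa Fluor 555 the median was 0.24, and 2 were higher in large fish and 6 in small fish. Over all 34014 probes 2605 were higher in large and 1424 in small fish in Alexa Fluor 647 alone. In Alexa Fluor 555 alone these were 1184 and 1920. The median of the list was -0.12 without pool pair 1 and -0.44 without pool pair 2. The 2 serum albumin probes, for the most abundant plasma protein, lay at -0.51 (SE 0.23) and -0.25 (SE 0.27) and did not pass. Tetranectin passed on the side of the small fish at 0.60 (SE 0.20), though not without pool pair 1 (0.27), and its name comes from the Dec. liver tables. Nattectin, named for a venom lectin, was low on all arrays, at -1.37, -3.85, -3.32 and -1.83, and did not pass, with a mean of -2.59 (SE 2.54). Its SE uses the spread of both lots, and its Sept. mean was 0.83.

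Glutathione, thioredoxin and xenobiotic enzymes had 9 of 43 probes past the thresholds (20.9%, beside 4.84% over all probes), 5 on the side of the small fish (2.09% over all probes) and 4 on that of the large fish (2.75%). The 4 were both cyp1a probes, flavin containing monooxygenase 5 and ahr2b, a receptor that senses aromatic compounds and switches on cyp1a, at -0.47 (SE 0.17). The ahr2b arrays lay at -1.45, 0.20, -0.90 and 0.25, so that it was low with small fish in Alexa Fluor 647 only, and it did not pass with either pool pair left out. Glutathione peroxidase, which removes peroxides, lay at -0.19, 1.21, 0.56 and 1.22, with a mean of 0.70 (SE 0.20) that did not pass without pool pair 2 (0.51), and thioredoxin-interacting protein had 0.58 (SE 0.19), with arrays at -0.21, 0.97, 0.47 and 1.10 and no pass without pool pair 2 (0.38). The 3 others on the side of the small fish owe their names to the Dec. liver tables, among them sestrin 1, a stress-induced brake on growth signals, at 0.54 (SE 0.18), and none of these 3 passed without pool pair 1. The median of the list was -0.44 in Alexa Fluor 647 and 0.15 in Alexa Fluor 555.

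Of 33 probes for cell division, growth arrest and apoptosis 8 passed (24.2%, beside 4.84% over all probes). Of these 7 were higher in small fish and 1 in large fish. Of the list 26 ratios were above 0, with a median of 0.11. Among the 29 named independently of the Dec. liver tables, 3 were higher in small fish and 1 in large fish. The cell division control protein 2 homolog, the kinase that starts mitosis, lay at 0.40, 1.00, 0.45 and 0.63, with a mean of 0.62 (SE 0.14). All 4 arrays were above 0, and it did not pass without pool pair 1, at 0.54. Cyclin-dependent kinase 7, which activates that kinase, was at 0.53 (SE 0.12), with arrays at 0.13, 1.04, 0.02 and 0.94, and thus near 0 with small fish in Alexa Fluor 647. Septin-7, of the ring that divides cells, lay at 1.02, 0.85, 0.72 and -0.35, with a mean of 0.56 (SE 0.21) that became 0.19 without pool pair 1 and did not pass. Bax and cyclin-dependent kinase inhibitor 3, at 0.72 (SE 0.14), were named by the Dec. liver tables alone. The 1 on the side of the large fish was transducer of 1.

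Of the lists for making and breaking down proteins, the secretory list had 1 of 29 probes past the thresholds (3.45%), the gamma subunit of sec61, the channel into the endoplasmic reticulum, at 0.83 (SE 0.29), which did not pass with either pool pair left out. Of 48 ribosome and translation probes 3 passed (6.25%), all on the side of the small fish, with ribosomal protein s13 at 0.63 (SE 0.15), above 0 on all 4 arrays but not past without pool pair 1 (0.53), and a median of 0.02 for the list. Of 40 proteasome and ubiquitin probes 4 passed (10%), 3 on the side of the small and 1 on that of the large fish, with a median of 0.04. Over all probes the share was 4.84%. Among probes named independently of the Dec. liver tables, 2 of 47 ribosome and translation probes passed, both on the side of the small fish. Of 38 such proteasome and ubiquitin probes 1 passed in each direction. For the regulators named next it was 1 of 19 in each direction. Immediate-early and stress regulators had 3 of 20 (15%), 2 on the side of the small fish, and nf-kappa-b inhibitor alpha, which holds an inflammatory transcription factor in the cytoplasm, lay at 0.58 (SE 0.19) with arrays at -0.23, 1.67, 0.10 and 0.77 and did not pass with either pool pair left out.

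**Figure D4:**
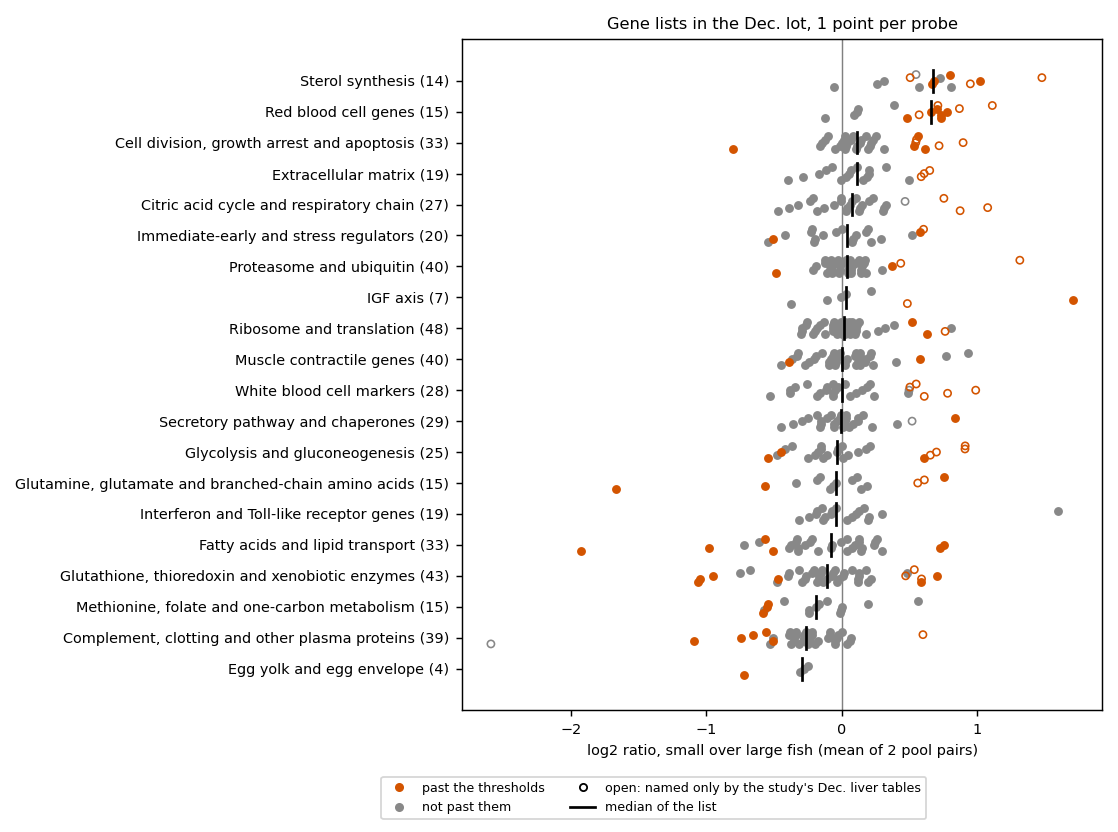
Log2 ratio of small over large fish (mean of 2 pool pairs) for every probe of the 20 gene lists, ordered by the list median (black bar); orange points passed the thresholds, gray points did not, and open points carry a name only from the Dec. liver tables of the study. Sterol synthesis and red blood cell genes stand at the top with medians of 0.68 and 0.66, and the plasma proteins and egg proteins at the bottom with medians of -0.26 and -0.30.

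Markers of other cells were described in the same way. Of 28 white blood cell probes 5 were higher in small fish (17.9%, beside 4.84% over all probes) and 0 in large fish. All 5 were named by the Dec. liver tables alone. None of the 22 white blood cell probes named independently of those tables passed, with a median of -0.06. Of 40 muscle contractile probes 1 passed in each direction (5% in all, beside 4.84% over all probes), with a median of 0.00. They were titin at 0.58 (SE 0.21), which did not pass without pool pair 2 (0.22), and, on the side of the large fish, a troponin, fast myotomal muscle troponin-t-1 (-0.39, SE 0.12), which did not pass with either pool pair left out. Of 19 matrix probes 3 were higher in small fish (15.8%, beside 4.84% over all probes) and 0 in large fish. All 3 were named by the Dec. liver tables alone, among them laminin subunit beta-2, of basement membranes, at 0.61 (SE 0.12). Ratios were above 0 for 13 of 19, with a median of 0.11. None of the 16 matrix probes named independently of those tables passed, with a median of 0.06.

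Of 19 interferon and Toll-like receptor probes none passed, beside 4.84% over all probes. The interferon-induced helicase on A_05_P486287, a sensor of viral RNA, had a mean of 1.60 (SE 0.73) that came from 1 array at 6.38, while the others lay at 0.10, -0.01 and -0.08. The 4 probes for egg yolk and egg envelope genes, which the liver of maturing females makes under estrogen, had ratios from -0.72 to -0.25. Zona pellucida sperm-binding protein 3 passed at -0.72 (SE 0.19), with arrays at -1.47, 0.06, -1.70 and 0.23, and did not pass with either pool pair left out. The estrogen receptor esr1 was at -0.31 (SE 0.17) and -0.25 (SE 0.14), and neither passed. The median of these probes was -0.82 with small fish in Alexa Fluor 647 and 0.19 in Alexa Fluor 555.

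**Figure D5:**
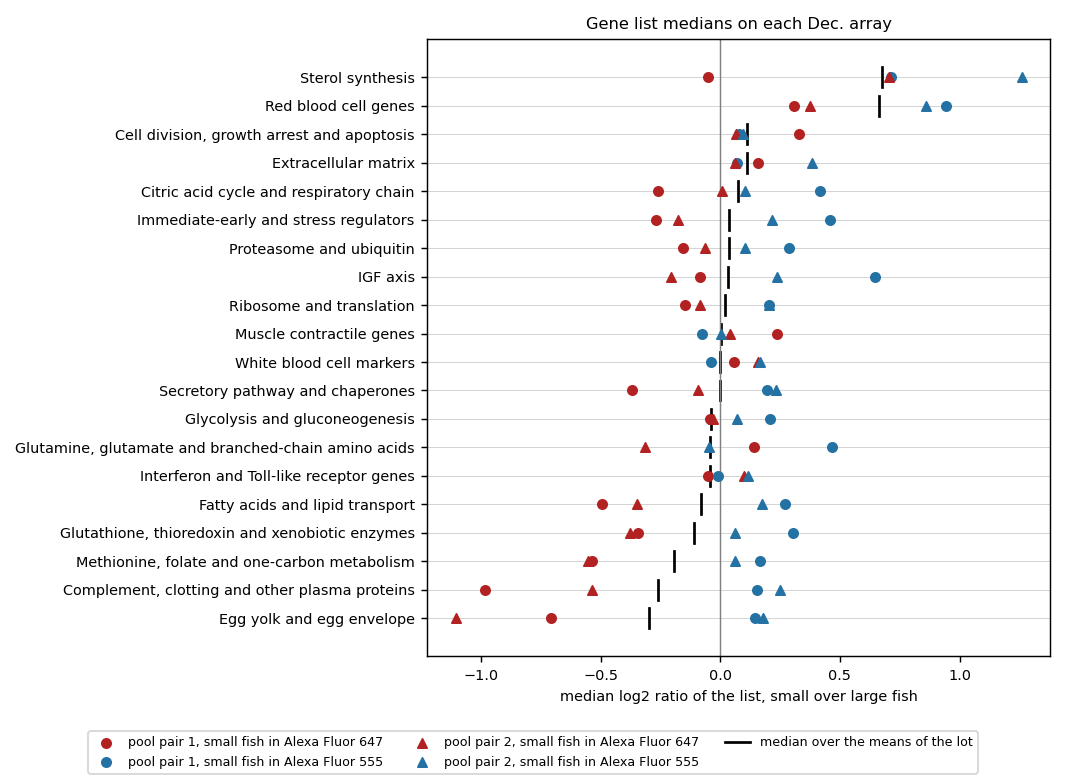
Median of each gene list (log2, small over large fish) on each Dec. array (shape for the pool pair, color for the dye of the small fish), with the median over the means of the lot as a black bar. For plasma proteins, one-carbon metabolism, fatty acids and egg proteins both arrays on which small fish carried Alexa Fluor 647 lie below 0. Both in Alexa Fluor 555 lie above 0. The same split shows in the IGF axis, glycolysis, glutathione, secretory, proteasome, ribosome and immediate-early lists. The red blood cell genes lie above 0 on all 4 arrays.

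The red blood cell, cell division and extracellular matrix lists had medians above 0 on all 4 arrays. Among members named independently of the Dec. liver tables this held for the red blood cell and cell division lists only. The matrix medians of such members were 0.04, 0.03, -0.10 and 0.30. The red blood cell medians were 0.31, 0.94, 0.37 and 0.86 over all members and 0.31, 0.93, 0.28 and 0.60 over those named independently. Those of cell division were 0.33, 0.08, 0.06 and 0.09 over all members and 0.31, 0.08, 0.05 and 0.04 over those named independently. Over all its members the sterol list had -0.05, 0.71, 0.71 and 1.26, with only the first array of pool pair 1 below 0. The plasma proteins had -0.98, 0.15, -0.54 and 0.25. The medians of all probes were 0.10, -0.03, 0.03 and 0.00 on the same arrays.

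Most of the probes past the thresholds carry no name, 1479 of 1647, which is 4.54% of the 32600 unnamed probes tested. The unnamed probes with the largest ratios among those with the same sign on all arrays included A_05_P324792 at -2.23 (SE 0.64) and A_05_P405392 at -2.13 (SE 0.38), both higher in large fish. The first lay at -0.89 on both arrays of pool pair 1 and at -3.57 and -3.58 in pool pair 2, so that the arrays of each flip practically coincided while the pool pairs did not. The second lay at -2.01, -0.70, -3.63 and -2.16. On the side of the small fish A_05_P347912 had 0.20, 0.85, 1.92 and 2.55, with a mean of 1.38 (SE 0.43), and A_05_P354642 had 0.09, 0.79, 5.50 and 0.11, a mean of 1.62 (SE 0.56) that rests on 1 array.

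To see whether the size difference in Dec. differed from that in the Sept. lot, the ratio of Dec. minus that of Sept. was tested in the same fit. Of 33291 probes with values on all 8 arrays 917 passed the thresholds (2.75%), 408 (1.23%) with a higher ratio in Dec. and 509 (1.53%) with a lower one, and none passed an adjusted p of 0.05, with a smallest adjusted p of 1.00 in limma. The lots were sampled at about the same age and differ in parents and season. They also differ in the weights of the pooled fish, with small fish lighter relative to large fish in the Sept. pools. These differences cannot be told apart here. The probes named here were chosen for their Dec. values, so that their differences from Sept. are not independent of that choice.

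All 9 hemoglobin probes that passed in Dec. also passed for this difference, by 0.83 to 1.32 on the log2 scale, and 8 of the 9 had a ratio below 0 in Sept. The median of the red blood cell list was -0.35 in Sept. IGFBP1 on A_05_P489857 was higher in small fish in both lots, at 0.70 in Sept., and the difference of 1.01 (SE 0.26) passed. None of the 7 sterol probes that passed in Dec. passed for the difference. All 7 were above 0 in Sept. as well, with isopentenyl-diphosphate delta-isomerase 1 at 0.92 and the lathosterol oxidase-like probes at 0.68 and 0.64. Names can also come from the study's Sept. liver tables, so that a likeness to Sept. is partly given by how the list was filled. Lipocalin had 1.42 in Sept. and -1.93 in Dec., a difference of -3.35 (SE 0.65) that passed. Wap65 lay at -0.24 and -0.10 in Sept., and both of its probes passed for the difference, at -0.85 (SE 0.22) and -0.64 (SE 0.18). Trophoblast glycoprotein on A_05_P341612 lay at -1.54 in Sept. and did not pass for the difference, at -0.29 (SE 0.41). Of the leading 15 probes of either side, 9 of the small fish and 7 of the large fish passed for the difference, and 3 of the small fish had no complete Sept. value.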

How the data were processed

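Liver mRNA pools of small and large trout were compared on two-color arrays. The authors read the scans with GenePix Pro, excluded poor spots manually together with points whose channel signals had a low ratio, and normalized by lowess, first inside and then between arrays, in GeneSpring. What they deposited are log2 ratios after these steps. Of 43663 rows, 60 control rows were left out. Signals of the single channels were not used here, so that no limit from brightness could be set, and the number of arrays limits the precision.

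Both arrays of a pool pair were averaged as 1 replicate. The pool pairs of both lots were fitted in limma (lmFit on 43603 probes, a mean per lot, eBayes with neither trend nor robust), without further centering, and p-values were adjusted by Benjamini-Hochberg over all probes tested in a comparison. Naming rules took, of probes past the thresholds with a gene name and the same sign on all arrays, the 15 with the largest ratios in each direction. Placeholder names such as a bare locus number, unnamed open reading frames and mobile elements were left out. The rules also took up to 4 members past the thresholds of each list (the 2 largest where none passed) and all IGF axis, hemoglobin and sterol probes. Last, they took the 2 leading unnamed probes past the thresholds in each direction. Some list members so taken are not named in the text. Other list members named in the text were chosen after their values were seen. Members, lists and tests were chosen with earlier results of these data known. Lists were filled by name or symbol, so that t-complex protein 1 subunit epsilon fell among the glycolysis probes, and they were described and not tested.

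The same pool pair numbers recur in both lots without shared fish, and deviations of same-numbered pairs correlated at 0.03. The code was tested on simulated data. Tools were R 4.3.3, limma 3.58.1, Python 3.11.15, pandas 2.3.3 and matplotlib 3.10.9.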

Additional observations from a re-analysis of the deposited data

Results flagged for a closer look

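On 9 probes 1 Dec. array lay far from the other 3 (log2 ratio of that array in parentheses), namely methyltransferase-like protein 21a A_05_P377727 (-1.89), complement component c9 A_05_P485237 (0.25), class e basic helix-loop-helix protein 40 A_05_P271931 (0.14), ubiquitin-conjugating enzyme e2 g2 A_05_P289367 (0.90), hemoglobin subunit beta A_05_P463622 (0.0029), peroxisome proliferator-activated receptor gamma A_05_P248874 (-0.074), leucine-rich repeat-containing protein 31 A_05_P446667 (0.29), the interferon-induced helicase on A_05_P486287 (6.38), the unnamed probe A_05_P354642 (5.50). This comparison of the most distant array with the range of the 4 singles out about 1 in 20 probes by chance. It was run only on the probes that the naming rules given with the processing led to. These were 86 probes past the thresholds and others that did not pass. This helicase and the unnamed probe with an array at 5.50 owe their means to that array.

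Among the probes that the naming rules gave, 38 passed the unadjusted thresholds for the difference between the Dec. and the Sept. ratio. None passed an adjusted p of 0.05 in limma. Over all probes tested for this difference 2.75% passed the unadjusted thresholds. Other list members described above were not included. The log2 ratio was higher in Dec. (Dec. minus Sept. in parentheses) for the hemoglobin probes hba A_05_P249379 (0.83), hemoglobin subunit alpha A_05_P249524 (1.28), hemoglobin subunit beta-1 A_05_P453042 (1.32), hemoglobin subunit beta A_05_P463622 (1.05), hemoglobin subunit beta-1 A_05_P365862 (1.15), hemoglobin subunit alpha A_05_P449312 (1.27), hemoglobin subunit alpha A_05_P491417 (1.30), hemoglobin subunit alpha A_05_P480657 (1.32), hemoglobin subunit beta A_05_P488772 (1.10). It was also higher for integrin alpha-x A_05_P326252 (0.66), DNA-binding protein inhibitor id-1 A_05_P273294 (0.58), laminin subunit beta-2 A_05_P397982 (0.71), cell division control protein 2 homolog A_05_P311652 (1.06), ribosomal protein s13 A_05_P471392 (0.94), cartilage intermediate layer nucleotide pyrophosphohydrolase A_05_P355452 (0.69), phosphoglycerate mutase 1 A_05_P252889 (0.61), glutathione peroxidase A_05_P365217 (1.00), cyclin-dependent kinase inhibitor 3 A_05_P385997 (0.76), peroxisome proliferator-activated receptor gamma A_05_P248874 (0.87), cytochrome c oxidase subunit vic A_05_P276699 (0.73), 39s ribosomal protein mitochondrial precursor A_05_P334607 (0.66), family with sequence similarity 19 (chemokine (c-c motif)-like) member a5 A_05_P449432 (0.57), malate dehydrogenase 1b A_05_P294817 (0.71), zinc finger protein 182 A_05_P399542 (0.64), g-protein-signaling modulator 2 A_05_P471202 (0.96), apoptosis regulator bax A_05_P261324 (0.85), enolase 3-2 A_05_P466287 (0.71), leucine-rich repeat-containing protein 31 A_05_P446667 (0.96), aconitate mitochondrial-like A_05_P379862 (0.97), IGFBP1 A_05_P489857 (1.01). It was lower in Dec. for the unnamed probe A_05_P405392 (-2.15), lipocalin precursor A_05_P414837 (-3.35), zinc transporter ZIP3 A_05_P372187 (-1.19), Wap65 A_05_P251959 (-0.85), purine nucleoside phosphorylase A_05_P415112 (-1.39), transducer of 1 A_05_P275989 (-1.20), unc93-like protein mfsd11 isoform 1 A_05_P310947 (-1.07), Wap65 A_05_P420737 (-0.64). Most of these probes were chosen for a large Dec. ratio, so that a difference from Sept. is partly given by the choice.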

How the results depend on the processing

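No Dec. probe reached an adjusted p of 0.05 under the alternatives for which this was counted. It was not counted for either dye alone or with the sign turned on arrays with small fish in Alexa Fluor 555. At the unadjusted thresholds, 1647 probes (711 higher in small fish, 936 in large fish) became 709 (404 and 305) with the methods' t-test over 4 arrays, 499 (240 and 259) with that test over 2 pool pairs, and 684 (251 and 433) at a fold of at least 1.5. On the arrays that carried small fish in Alexa Fluor 647 alone 4029 passed (1424 and 2605), in Alexa Fluor 555 alone 3104 (1920 and 1184), and with the sign turned on the latter arrays 6809 (2598 and 4211). The share of calls on the side of the small fish was 43.2%, against 35.3% and 61.9% on either dye alone, 57.0% with the t-test over 4 arrays and 34.0% with each array centered. With the Dec. lot fitted alone 1182 passed, 455 of them higher in small fish. Leaving out 1 pool pair of either lot gave 1182 to 3671 probes, 455 to 1645 higher in small and 727 to 2026 in large fish, and 580 to 2677 in place of 917 for Dec. minus Sept. The highest counts came without Dec. pool pair 2. With the pool pair number as a replicate block 2149 passed (861 and 1288) and 1284 for Dec. minus Sept.; the numbers do not pair fish across lots. Moderating the spread over the Dec. probes alone, added after seeing the data, gave 1924.

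The naming rules given with the processing led to 86 probes past the thresholds. Of these 44 still passed on Alexa Fluor 647 alone and 61 on Alexa Fluor 555 alone. Other list members described above are not counted, nor were they searched for turned signs below unless stated. The cause of the losses was not tested. The 86 probes were chosen on all these arrays, so that passing on part of them is partly given by the choice. On Alexa Fluor 647 alone the sign turned for isopentenyl-diphosphate delta-isomerase 1 (-0.22), lathosterol oxidase-like A_05_P251024 (-0.071) and A_05_P371977 (-0.24), nf-kappa-b inhibitor alpha (-0.062), the proteasome 26s probe A_05_P406557 (-0.13), ghr1 (-0.19) and 7-dehydrocholesterol reductase A_05_P271219 (0.35). On Alexa Fluor 555 alone it turned for hba A_05_P332705 (-0.35), hemoglobin beta A_05_P395622 (-0.41), the IGF-I receptor (-0.070), igfbp6 (0.34) and growth factor receptor-bound protein 14 (0.53). It also turned for interferon-induced transmembrane protein (0.17), igfbprp1 (0.24), formiminotransferase cyclodeaminase (0.41), glutaryl-coenzyme a dehydrogenase (0.040), sarcosine mitochondrial (0.054) and zona pellucida sperm-binding protein 3 (0.15). Of the other list members described above as passing, heart-type fatty acid-binding protein (0.20), apolipoprotein B-100 A_05_P255119 (0.18) and pck2 A_05_P249281 (0.095) turned on this dye. So did inter-alpha-trypsin inhibitor heavy chain h3 (0.27), the C1r/C1s-like protease (0.39) and ahr2b (0.23). With 1 pool pair left out the ranges crossed 0, none of them past the thresholds with all arrays, for hemoglobin subunit alpha A_05_P441202 (-0.36 to 1.14), ghr1 A_05_P249629 (-0.088 to 0.52), hba A_05_P332705 (-0.16 to 0.39), hemoglobin subunit beta A_05_P395622 (-0.14 to 0.32), insulin-like growth factor i receptor A_05_P249834 (-0.0043 to 0.072), igfbp6 A_05_P249174 (-0.081 to 0.070), 7-dehydrocholesterol reductase A_05_P271219 (-0.27 to 0.14).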
